A study of Mus musculus with 30 samples.

Results

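The cytosolic ribosomal protein genes were taken as the protein-coding genes with an Rpl or Rps symbol, plus Rplp0, Rplp1, Rplp2 and Rpsa, whose mean level over all 30 libraries was at least 1 CPM (CPM scales a gene's reads to the total of its library). Kinase genes named Rps6k and pseudogene names ending in -ps were left out. By name 83 of the 55487 genes in the table belonged to the family, and 69 reached the threshold: 27 proteins of the small subunit and 42 of the large subunit. Since members were chosen by their mean level over all libraries, levels are described here without a test, and tests were made only between genotypes, which the choice did not use. RNA came from the colon of 30 mice, 5 in each of 6 groups, and was made into 3′ tag libraries, which read the end of each polyadenylated transcript once and need no correction for gene length when genes are compared. Library totals ran from 3516793 to 5823060 reads, so 1 read was worth about 0.232 CPM in the median library.

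The control mice are labelled WT. Mice of the single knockout groups, XBP1IEC-KO and Casp8IEC-KO, lack 1 gene each. The double knockout carries both XBP1IEC-KO and Casp8IEC-KO. The TNFR1 triple knockout adds TNFR1IEC-KO to the double knockout, and the MLKL triple knockout adds MLKLKO (Mlkl-/-) to it. Xbp1 encodes a transcription factor of the endoplasmic reticulum stress response, Casp8 a protease of death signalling, TNFR1 a receptor for tumour necrosis factor, and MLKL the executioner of necroptosis. IEC stands for intestinal epithelial cells, the cells that carry the deletion, whereas MLKL is labelled as lost in the whole animal. The sources used here do not give the driver of the deletions, the deleted exons, the strain, the age or the sex. RNA of the whole colon mixes epithelium with muscle, stroma and immune cells, and in such bulk RNA fewer cells of a type and less RNA per cell cannot be told apart.

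Cytosolic ribosomes are built in the nucleolus from ribosomal RNA and about equal numbers of each ribosomal protein, with the small subunit decoding the messenger RNA and the large subunit forming peptide bonds. The messenger RNAs of ribosomal proteins typically start with a run of pyrimidines, the 5′ terminal oligopyrimidine motif, through which LARP1 and mTOR signalling set their translation and stability. These messengers are abundant and short, and mammalian genomes have copied them back many times as processed pseudogenes, so that reads from a gene and from its copies can be hard to assign.

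That last property is visible in the sequences. Below are coding stretches of 60 bases, 5′ to 3′, ending at or 3 bases before the end of the stop codon, from the GENCODE M21 transcripts (GRCm38). The first 3 pairs set a member beside the annotated processed pseudogene with the most reads among its copies. For these 3 pairs the stretch with the fewest differences was chosen from the 150 bases up to the end of the stop codon. Among equals the one nearest the stop codon was taken. Capitals mark bases that differ within a pair. These 3 pairs have none, which the choice favoured, so they do not describe the rest of the coding end.
Rps13: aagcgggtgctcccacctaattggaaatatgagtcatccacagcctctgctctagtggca
Rps13-ps2: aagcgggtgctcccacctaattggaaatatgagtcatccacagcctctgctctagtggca
Rps29: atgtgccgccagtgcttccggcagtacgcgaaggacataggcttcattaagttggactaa
Gm14303: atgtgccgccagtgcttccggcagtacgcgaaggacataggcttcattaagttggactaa
Rpl11: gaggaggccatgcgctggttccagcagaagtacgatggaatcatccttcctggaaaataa
Gm10288: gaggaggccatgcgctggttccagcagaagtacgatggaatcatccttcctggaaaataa
The fourth pair shows the paralogues Rps27 and Rps27l, both protein-coding, at the stop codon without such a choice. They differ at 12 of the 60 bases (80.0% identity), so that a read over this stretch can tell them apart. Its differences are not to be set against those of the first 3 pairs.
Rps27: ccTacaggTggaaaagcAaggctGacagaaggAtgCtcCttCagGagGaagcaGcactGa
Rps27l: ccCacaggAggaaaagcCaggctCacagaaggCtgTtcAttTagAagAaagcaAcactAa

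The Rps13 gene lies on chromosome 7 (116331505 to 116334195, minus strand) and Rps13-ps2 on the same chromosome (88530446 to 88530898, minus strand). Rps29 is on chromosome 12 and its copy Gm14303 on chromosome 2 (172509521 to 172509691), and Rpl11 is on chromosome 4 and its copy Gm10288 on chromosome 3 (146838811 to 146839347). Neither Rps13-ps2, Gm14303 nor Gm10288 overlaps another annotated gene. Of other copies taken up below, Rpl38-ps2 overlaps Gm11077 and Gm5963 overlaps Sema5b, in both cases on the opposite strand.

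Copies were counted by aligning the 200 bases around each gene's stop codon to all annotated transcripts, with at least 95% identity over at least 75 bases. Of the 69 members 68 (98.6%) had at least 1 such copy in another gene, against 10.4% of 13561 other protein-coding genes at 1 CPM or more. At least 5 copies were found for 46 members (66.7%) and for 0.796% of the other genes. Rpl21, a large-subunit protein, had the most, 62 copies. For 40 members a copy held an identical stretch of at least 75 bases.

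The members together took 0.736% to 1.22% of the reads of a library, with a median of 0.850%. Their mean levels ran from 1.001 to 1341 CPM with a median of 14.96, although the proteins themselves are needed in like numbers. The acidic stalk protein gene Rplp1 was highest at 1341 CPM, and Rps20 (860) and Rpl4 (847) were also among the highest. The lowest were Rpl27 (1.001), Rpl38 (1.08), Rpl11 (1.18) and Rpl35a (1.23). The 10 highest members held 80.0% of the members' reads, 14 members stood at 100 CPM or more, and 30 stood under 10 CPM.

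Just inside the threshold lay Rpl27 at 1.001 and Rpl38 at 1.08 CPM, and just outside it Rpl28 at 0.973 and Rps27a at 0.943 CPM. The 14 genes under 1 CPM included Rps6, the main substrate of S6 kinase, at 0.0333 CPM, and Rps4x at 0.0985, besides Rpl10, Rps3a1, Rpl24, Rps16, Rpl22l1, Rpl35, Rpl29, Rpl3l and Rpl39l between 0.0134 and 0.818 CPM. Rpl10l was listed at 0. Levels of this kind therefore describe reads assigned to an annotation, and how much of each messenger they represent was not tested.

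Levels were set beside the number of copies as a description. The 54 genes of the family with 5 or more copies had a median of 5.48 CPM, and the 26 genes with 1 to 4 copies one of 47.1 CPM. The 3 genes without a copy ranged from 0.0134 to 889 CPM, so that their median of 0.0812 CPM describes them poorly. For 24 of the 69 members a copy was read above the member itself.

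Among them were Rps13 (5.14 CPM) with Rps13-ps2 at 355 CPM, Rpl23 (38.3) with Gm9794 at 315, and Rps29 (1.34) with Gm14303 at 311. Rpl31 (17.6 CPM) stood below Rpl31-ps8 (297), Rpl11 (1.18) below Gm10288 (273), Rps21 (5.25) below Gm5963 (242), and Rpl37 (2.36) below Rpl37rt (122). In all, 620 annotated pseudogenes were copies of members; 44 of them were at 1 CPM or more. Their mean levels summed to 2546 CPM, beside 8591 CPM for the members.

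**Figure D1:**
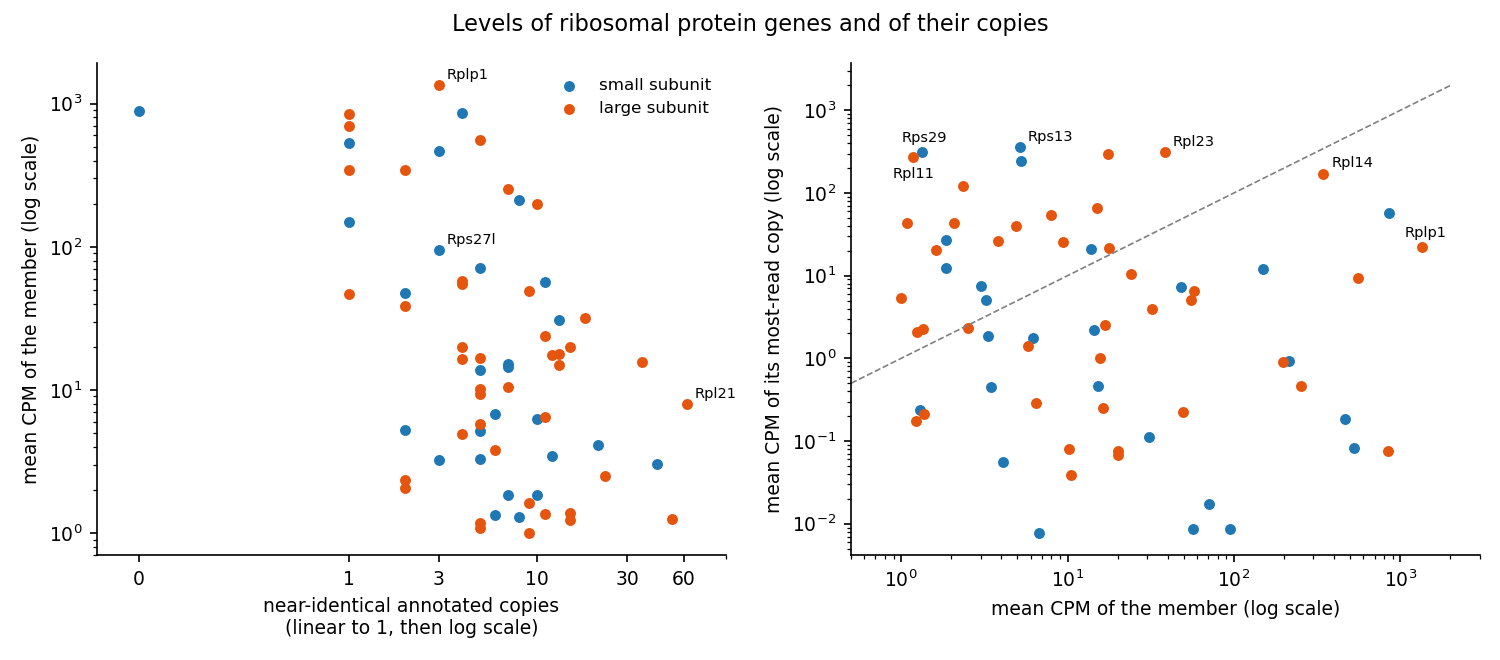
Left, mean CPM of each of the 69 members over 30 libraries (log axis) against its number of near-identical annotated copies (linear to 1, then log), coloured by subunit. Right, mean CPM of the most-read copy against that of the member, both on log axes, for the 65 members with reads on a copy; points above the dashed line are members read less than their copy, with Rps29 and Rpl11 at the far left.

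Some members carry the name of another. Rps27l, which resembles Rps27 and is known as a target of p53, stood at 95.2 CPM, while Rps27 itself stood at 1.30 CPM. Rpl7l1, which resembles Rpl7, stood at 46.4 CPM beside 10.4 for Rpl7. The genes named with an a, which encode proteins distinct from their namesakes, ran from Rps15a (213 CPM), Rpl13a (55.0), Rpl27a (32.0) and Rpl37a (24) down to Rpl10a (4.90), Rpl23a (2.52), Rpl36a (1.62), Rpl7a (1.25) and Rpl35a (1.23).

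Starts of transcripts were available for 51 of the 69 members among the RefSeq promoters (GRCm38.p6). The letters CTTTCC, a short form of the oligopyrimidine motif, occurred on the transcribed strand within 20 bases of an annotated start in 8 of the 51 members (15.7%) and in 2.30% of 27025 genes. The letters CCGGAAG, a binding motif of ETS factors, occurred on either strand of the 300-base promoters of 22 members (43.1%) and of 9.93% of genes. The letters CACGTG, the E-box bound by MYC, occurred on either strand in 6 members (11.8%) and in 8.09% of genes. Windows of 30 bases centred on the start are shown for 3 members taken up below, with the oligopyrimidine letters in capitals. They lie at chr17:27635230-27635259 (minus strand), chr11:114668565-114668594 (plus strand) and chr3:90213634-90213663 (minus strand), in this order.
Rps10: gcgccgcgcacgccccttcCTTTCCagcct
Rpl38: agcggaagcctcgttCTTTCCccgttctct
Rps27: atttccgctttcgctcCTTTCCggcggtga

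A few libraries stood apart. The first replicate of the double knockout had the highest share of reads on members, 1.22%, against 0.803% to 0.956% in the other mice of its group, and the lowest mitochondrial share, 10.3%. The library labelled XBP1IEC-KO replicate 2 had Casp8 at 20.6 CPM, below the 44.2 to 66.3 CPM of the rest of its group. The library labelled MLKL triple knockout replicate 5 had Mlkl at 10.7 CPM, above the 5.85 to 10.3 CPM of the control mice. The library labelled TNFR1 triple knockout replicate 1 had Xbp1 at 104 CPM, against 52.1 to 58.6 CPM in the rest of its group. Its Tnfrsf1a, the gene of TNFR1, was at 71.9 CPM, within the 66.9 to 81.9 CPM of controls. The 3 libraries named before it were left out together in an alternative below, and it was not. A 3′ tag outside the deleted part would not show a deletion, and Xbp1 ranged from 55.0 to 102 CPM in controls from 50.3 to 64.7 in XBP1IEC-KO, from 70.4 to 134 in the double knockout, from 52.1 to 104 in the TNFR1 triple and from 60.2 to 91.8 in the MLKL triple knockout. In the double knockout Xbp1 reads thus were not below those of controls, and the loss of Xbp1 there is known from the labels. Calls that end without one of these libraries are marked as such below. Sex called from Xist and Y-linked genes was unevenly spread, with 1 female among the controls, 1 among double knockouts, 3 in either single knockout group, 4 with TNFR1 and 5 with MLKL lost as well.

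Of the 69 members 60 had enough reads to be tested. The other 9, Rpl30, Rpl36, Rps29, Rps27, Rpl7a, Rpl35a, Rpl11, Rpl38 and Rpl27, had at most 1.38 CPM on average. Genotypes were tested in edgeR (quasi-likelihood F test) over the 15458 genes kept, with Benjamini-Hochberg adjustment and a threshold of 0.05; a fold change is given on the log2 scale with its standard error (SE).

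The joint loss of Xbp1 and Casp8, as labelled, was read from the double knockout against WT. The 8 members that passed the test were all higher in the double knockout: Rps27l, Rpl39, Rpl32, Rpl41, Rplp0, Rps26, Rps20 and Rplp1. None was lower by edgeR or DESeq2. An unadjusted p under 0.05 by edgeR, in either direction, was reached by 20 of 60 members and 5323 of 15458 genes. These 8 are 13.3% of the members tested, and 11.1% of all genes tested were called higher in this comparison (10.2% lower), so the share of members was near the background. Scaled to column totals, 1332 genes were higher and 1931 lower, in place of 1715 and 1576. The median log2 fold change of the 60 members was 0.20, against 0.01 for all genes, and 44 of the 60 were above 0 (73.3%, beside 50.7% of all genes).

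Rps27l had the smallest p. Its levels in the control mice were 74.7, 70.4, 83.3, 77.0 and 84.2 CPM. In the double knockout they were 150, 107, 110, 92.2 and 93.8 CPM, every mouse above every control. The log2 fold change was 0.56 ± 0.12 (SE; adjusted p = 0.00106 by edgeR), and it stayed past the threshold in each of the 20 alternatives run.

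Rpl39, a small protein near the exit tunnel of the large subunit, was at 34.6, 36.9, 49.9, 46.1 and 41.2 CPM in controls. It was at 112, 55.5, 48.8, 55.1 and 63.1 CPM in the double knockout. The highest control lay above the lowest double-knockout mouse, and the first double-knockout mouse was far above the other 4. The fold change was 0.73 ± 0.16 (adjusted p = 0.00147 by edgeR), and over the alternatives it ranged from 0.49 to 0.83 with adjusted p up to 0.0132.

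Rpl32, a large-subunit protein, was at 534, 417, 566, 529 and 503 CPM in controls and at 873, 589, 540, 618 and 707 CPM in the double knockout. The lowest double-knockout mouse lay below the highest control, and the first double-knockout mouse was again the highest. The fold change was 0.44 ± 0.12 (adjusted p = 0.00692 by edgeR), with adjusted p up to 0.0326 over the alternatives.

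Rpl41, which encodes a very short peptide of the large subunit, was at 14.98 to 19.1 CPM (median 17.2) in controls and at 22.5, 22.3, 19.4, 23.8 and 36.9 CPM in the double knockout. The groups did not overlap, and the fifth double-knockout mouse was high. The fold change of 0.60 ± 0.17 (adjusted p = 0.0121 by edgeR) no longer passed without that mouse (adjusted p = 0.0655).

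Rplp0, the base of the acidic stalk that recruits elongation factors, was at 16.9, 13.3, 16.2, 14.98 and 14.6 CPM in controls and at 23.5, 17.5, 19.8, 19.96 and 23 CPM in the double knockout, again with no overlap. Its fold change was 0.50 ± 0.16 (adjusted p = 0.0195 by edgeR), and the call ended without the second control mouse (adjusted p = 0.0555). The 3 members whose groups did not overlap, Rps27l, Rpl41 and Rplp0, are 5% of those tested, beside 4.83% of all genes; none lay wholly below controls, beside 8.02%.

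The remaining calls were for abundant members. Rplp1, the partner protein of the stalk, rose from 1161 ± 111 CPM (SD, n = 5) to 1411 ± 259. Rps20 rose from 829 ± 99.7 to 1039 ± 211 CPM, and Rps26 from 434 ± 41.5 to 530 ± 88.7 CPM (SD, n = 5). In each of these 3 members the first double-knockout mouse was the highest of the 30 libraries, and the groups overlapped. Their fold changes were 0.33, 0.38 and 0.34 with adjusted p of 0.0267, 0.0221 and 0.0220 by edgeR, and each call ended without the first double-knockout mouse and, separately, without the second control mouse. Without the second control mouse 4 members were called higher, and without the 3 libraries that stood apart the calls for Rplp1, Rps20 and Rps26 ended together.

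**Figure D2:**
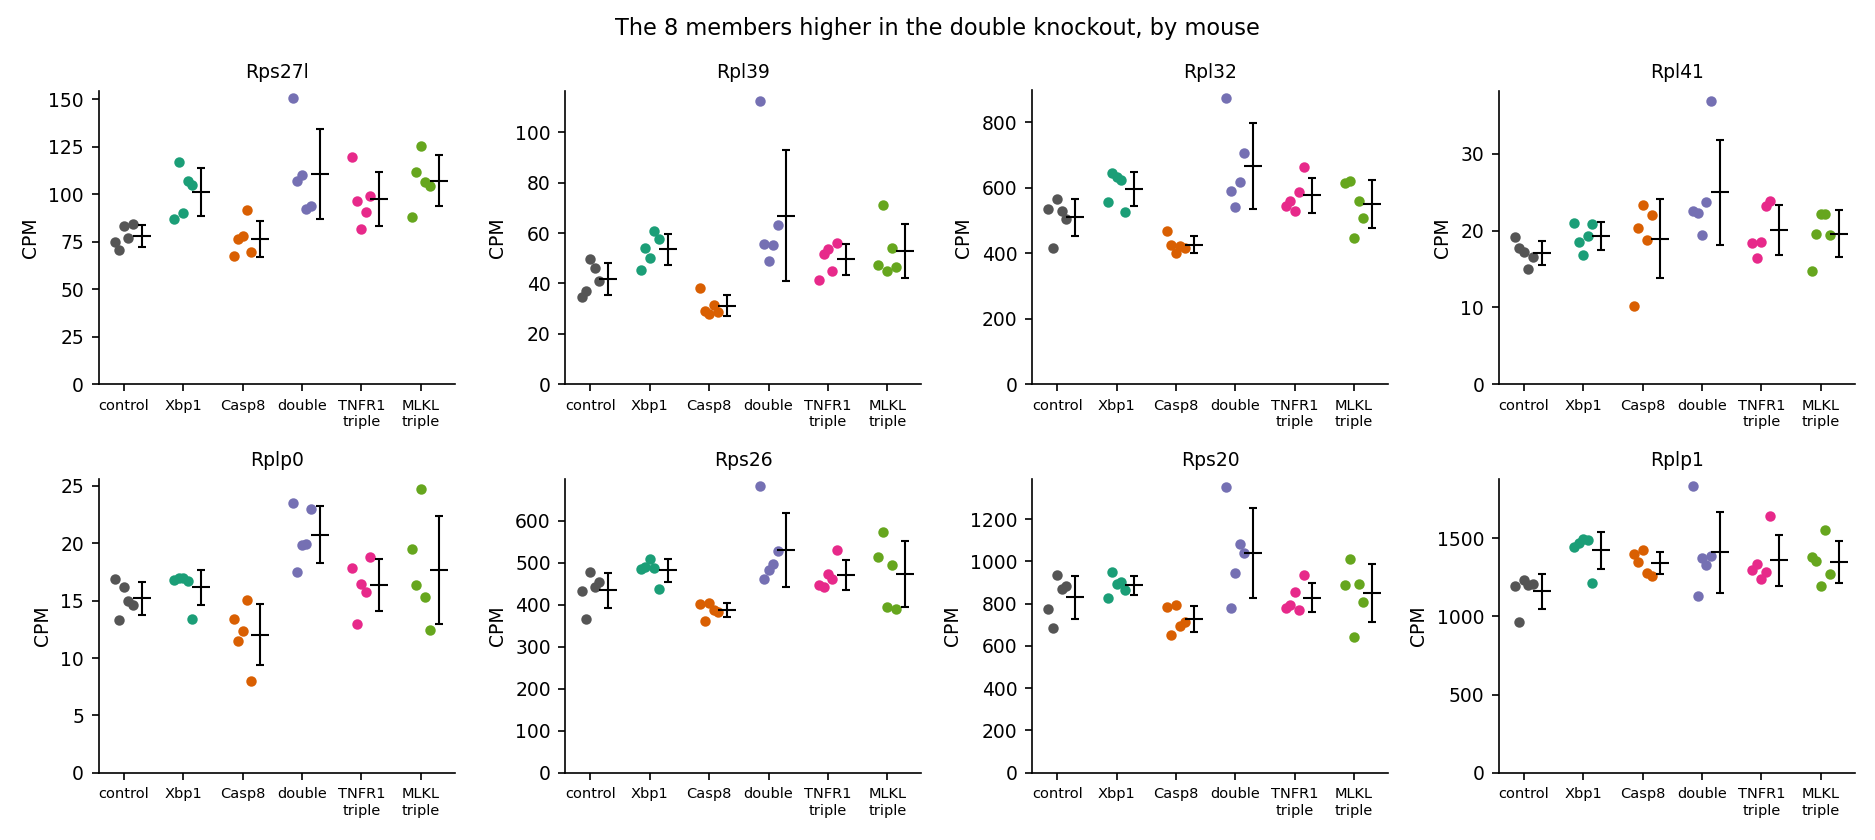
CPM of the 8 members called higher in the double knockout, for each of the 30 mice by genotype (points) with mean and SD (black, n = 5). Rps27l, Rpl41 and Rplp0 do not overlap between control and double knockout, and the first double-knockout mouse, at the left of its group, is the highest of its group in all panels but Rpl41.

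Among the 14 members at 100 CPM or more, all 14 had a fold change above 0 in this comparison, from 0.02 to 0.44 with a median of 0.22, and 4 passed the test. Of all genes, at any level, 50.7% were above 0, and other genes of like level were not compared. This count rests in part on the first double-knockout mouse and on the scaling: without that mouse 10 of the 14 were above 0, the median was 0.11 and 1 passed, without the second control mouse 11 were above 0 and 1 passed, and on column totals 10 were above 0 and 3 passed. The small subunit had 3 of 25 called and a median of 0.26, and the large subunit had 5 of 35 called and a median of 0.15. No test of the difference between the subunits was made.

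Other markers moved in the same comparison, beside 11.1% of all genes called higher and 10.2% lower. Of the smooth muscle markers 7 of 7 were lower, with a summed level of 2938 to 4284 CPM in the double knockout and 6571 to 8753 in controls. Of the plasma cell markers 6 of 8 were higher (2019 to 9877 against 440 to 1152 CPM), and of the monocyte and macrophage markers 6 of 9 were higher (295 to 770 against 219 to 392 CPM). Of 6 neutrophil markers 2 were tested and both were higher (14.4 to 280 against 0 to 4.21 CPM). Of the fibroblast markers 4 of 6 were lower, and of the proliferation markers 2 of 8 were higher. Of 9 T and NK cell markers 3 were tested and all 3 were higher. Epithelial markers went both ways, with 3 of 7 goblet cell markers lower and 1 higher, and 3 of 8 absorptive colonocyte markers higher and 1 lower. No B cell, stem cell or endothelium marker was called. The part of all these markers in the levels of the ribosomal protein genes was not tested.

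The genes that build and use ribosomes were read from lists, beside 11.1% of all genes higher and 10.2% lower. Of the ribosome biogenesis factors 12 of 45 tested (26.7%) were higher and 0 lower (median 0.27), among them the box H/ACA protein genes Nhp2 (0.76 ± 0.13, adjusted p = 0.000159) and Gar1 (0.83 ± 0.20, adjusted p = 0.00277) and the nucleolar GTPase gene Gnl3 (0.68 ± 0.18, adjusted p = 0.00766), by edgeR. Of the mitochondrial ribosomal protein genes 13 of 77 (16.9%) were higher and 0 lower (median 0.17), led by Mrpl20 (0.55 ± 0.11) and Mrpl3 (0.48 ± 0.11). Of the initiation factors 5 of 30 (16.7%) were higher and 0 lower, including Eif6, which keeps the subunits apart during maturation (0.66 ± 0.14), and Eif3b (0.43 ± 0.09). Of the elongation factors 2 of 8 were higher, Eef1a1 (0.61 ± 0.20) and Eef1g (0.66 ± 0.23).

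In the MLKL triple against the double knockout 2 of 45 biogenesis factors were lower (4.44%, beside 4.21% of all genes) and 0 higher, Nhp2 (-0.48 ± 0.13, adjusted p = 0.0220 by edgeR) and the helicase gene Ddx21 (-0.48 ± 0.14, adjusted p = 0.0276), and of the initiation factors Eif3b was lower (-0.36 ± 0.09), 1 of 30. In the same comparison 4 of 8 plasma cell, 3 of 9 monocyte and macrophage, 2 of 2 tested neutrophil and 2 of 8 absorptive colonocyte markers were lower, beside 4.21% of all genes. Higher were 3 of 7 smooth muscle, 2 of 5 stem cell, 1 of 7 goblet cell, 1 of 6 fibroblast and 1 of 8 B cell markers, beside 3.44% of all genes. Their part was not tested. In the TNFR1 triple against the double knockout 0 of 45 biogenesis factors were called, beside 1.02% of all genes higher and 1.33% lower. Of the initiation factors Eif2b1 was lower (-0.55 ± 0.15, adjusted p = 0.0436 by edgeR), 1 of 30. There 4 of 7 smooth muscle, 1 of 6 fibroblast and 1 of 8 B cell markers were higher. Lower were 2 of 2 tested neutrophil, 3 of 7 goblet cell, 1 of 8 plasma cell and 1 of 8 absorptive colonocyte markers. Their part was not tested either.

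In the lists of regulators few genes were called in the double knockout against WT: 1 of 8 higher and 1 lower in the MYC family, and 1 of 14 higher and 2 lower in the mTOR list, beside 11.1% and 10.2% of all genes. Myc, a transcriptional activator of ribosome production, was higher (1.51 ± 0.40, adjusted p = 0.00658 by edgeR), and its antagonist Mxd4 was lower (-0.39 ± 0.14, adjusted p = 0.0387). In the mTOR list Larp1, which binds the oligopyrimidine motif, was higher (0.42 ± 0.14), and the mTOR inhibitor Deptor (-0.39 ± 0.11) and the translation repressor Eif4ebp2 (-0.37 ± 0.11) were lower. Of 13 RNA polymerase I genes 0 were higher and 1, Taf1a (-0.60 ± 0.19), was lower. In the list of free ribosomal protein sensing by p53, Bax, a p53 target, was higher (0.77 ± 0.20, adjusted p = 0.00702), 1 of 10. The ribosomal proteins outside the naming rule that were tested, Rack1 (0.02 ± 0.09) and Rpl36al (0.11 ± 0.16), did not pass. The mTOR list had calls in other comparisons too. In Casp8IEC-KO against WT 1 of 14 was lower, Rheb (-0.54 ± 0.11, adjusted p = 0.0112 by edgeR), beside 0.537% of all genes. In the interaction 2 of 14 were higher (14.3%, beside 0.712% of all genes) and 0 lower. These were Eif4ebp1 (0.84 ± 0.21, adjusted p = 0.0448 by edgeR) and Rheb (0.61 ± 0.155, adjusted p = 0.0469). Their part was not tested.

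In XBP1IEC-KO against WT, no member was called in either direction by edgeR, and 0.0582% and 0.0259% of all genes were called higher and lower. An unadjusted p under 0.05 was reached by 13 of 60 members and 2017 of 15458 genes. The median of the members was 0.16, against -0.002 for all genes, with 43 of 60 above 0 (71.7%, beside 49.7% of all genes). Scaled to column totals the median was 0.073, against -0.084 for all genes. Rps27l was at 86.9, 117, 90.1, 107 and 105 CPM, every mouse above the controls, with a fold change of 0.46 ± 0.12 (adjusted p = 0.110). Rplp1 was at 0.38 ± 0.11 (adjusted p = 0.127). DESeq2 called 2 members higher, Rps27l and Rplp1. Groups did not overlap for 3 members that were above controls (5%, beside 1.03% of all genes), Rps27l, Rps15a and Rpl23, and for 1 below (1.67%, beside 4.68%), Rps9.

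In Casp8IEC-KO against WT, no member was called by edgeR in either direction, and DESeq2 called none. By edgeR 0.634% of all genes were called higher and 0.537% lower. An unadjusted p under 0.05 was reached by 4 of 60 members and 2419 of 15458 genes. The median was 0.05, and -0.005 when scaled to column totals. The smallest p values were those of Rps18, at 10.5, 4.70, 13.5, 6.02 and 9.34 CPM against 3.98 to 6.40 in controls (0.73 ± 0.29, adjusted p = 0.221), and of Rplp1 (0.27 ± 0.11, adjusted p = 0.226). Rps27l stood at 76.6 ± 9.46 CPM (SD, n = 5), within the range of the controls apart from 1 mouse at 91.6 and 2 below it. Rplp1 and Rps15 lay wholly above controls, 3.33% of members beside 1.85% of all genes, and 0 lay wholly below, beside 3.84%.

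The interaction asks whether the loss of Casp8 changed a gene differently with and without Xbp1. No member passed by edgeR, with 0.712% of all genes called higher and 0.666% lower. An unadjusted p under 0.05 was reached by 5 of 60 members and 2808 of 15458 genes. Rps9, a small-subunit protein, came closest: it was at 110 to 130 CPM in XBP1IEC-KO, 116 to 135 in Casp8IEC-KO, 133 to 171 in controls and 125, 165, 167, 231 and 235 in the double knockout (0.73 ± 0.21, adjusted p = 0.0664). DESeq2 called it. Rpl39 was next (0.66 ± 0.23, adjusted p = 0.123).

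Both triple knockouts were compared with WT and with the double knockout; the comparisons share these groups, so their values are set side by side only. Against WT the TNFR1 triple knockout had 1 member called higher, Rpl6 (1.67%, beside 1.16% of all genes), and 0 lower (0.957% of all genes). Rpl6, a large-subunit protein, was at 24.3, 15.98, 15.9, 28.4 and 19.2 CPM against 13.3, 15.9, 14.7, 11.2 and 13.4 in controls. The lowest triple-knockout mice were level with the highest control. The fold change was 0.68 ± 0.18 (adjusted p = 0.0428 by edgeR), and the call ended in 12 of 20 alternatives (highest adjusted p = 0.278). Among them were leaving out any 1 of the 5 control mice, leaving out the first TNFR1 triple-knockout mouse and adding sex to the fit. On rounded reads Rpl6 and Rplp1 lay wholly above controls, 3.33% of members beside 1.49% of all genes, and 0 lay wholly below, beside 3.38%.

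Against WT the MLKL triple knockout had no member called in either direction by edgeR, while 0.343% of all genes were called higher and 0.511% lower. An unadjusted p under 0.05 was reached by 9 of 60 members and 2373 of 15458 genes. The median of the members was 0.15 with 46 of 60 above 0 (76.7%, beside 51.1% of all genes). Rps27l was at 87.9, 112, 125, 106 and 104 CPM, all above the controls (0.46 ± 0.12, adjusted p = 0.0523), and it passed the test by DESeq2. It was the 1 member wholly above controls (1.67%, beside 1.46% of all genes), and 0 lay wholly below (2.78% of all genes). Rps24, a small-subunit protein, was at 15.2, 19.2, 26.9, 17.5 and 18.2 CPM against 12.2 to 17.9 in controls (0.48 ± 0.16, adjusted p = 0.134).

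Against the double knockout the MLKL triple knockout had 2 members called higher, Rpl27a and Rps10 (3.33%, beside 3.44% of all genes), and 0 lower (4.21% of all genes). Rpl27a, a large-subunit protein, was at 35.3, 37.6, 42.2, 46.0 and 35.7 CPM against 28.3, 31.3, 26.99, 24 and 19.1 in the double knockout, with no overlap. The fold change was 0.54 ± 0.12 (adjusted p = 0.00509 by edgeR). Rps10, a small-subunit protein, was at 5.49, 4.74, 6.13, 4.63 and 3.04 CPM against 1.29, 2.99, 1.99, 2.73 and 2.28, also without overlap (1.04 ± 0.27, adjusted p = 0.0150). It rests on 101 and 52 reads in all, and the call ended without the first double-knockout mouse (0.87, adjusted p = 0.0538) and when the other 4 groups were left out of the fit. Rpl9 was the third member wholly above the double knockout (5% of members, beside 3.40% of all genes), and 0 lay wholly below (1.62%). With sex in the fit both calls ended, at adjusted p of 0.0569 for Rpl27a; the groups held 5 females and 1 female.

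Against the double knockout the TNFR1 triple knockout had no member called by edgeR, with 1.02% of all genes called higher and 1.33% lower. An unadjusted p under 0.05 was reached by 8 of 60 members and 2812 of 15458 genes. The 2 smallest p values were those of Rps9 (-0.50 ± 0.15, adjusted p = 0.0654; called lower by DESeq2) and Rpl23a (0.78 ± 0.30, adjusted p = 0.145). Rpl23a was at 2.66 to 3.80 CPM against 1.32 to 2.28, without overlap. It was the 1 member wholly above (1.67%, beside 0.983% of all genes), and 0 lay wholly below (1.10%). Of the 14 members at 100 CPM or more, 0 were above the double knockout in the TNFR1 triple and 1 in the MLKL triple knockout, with medians of -0.14 and -0.19. Of all genes, at any level, 49.5% and 51.2% were above the double knockout. Without the first double-knockout mouse 4 of 14 were above it in each, with medians of -0.05 and -0.08.

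Rps27l across the 6 groups stood, from low to high, at 76.6 ± 9.46 (Casp8IEC-KO), 77.9 ± 5.84 (WT), 97.6 ± 14.1 (TNFR1 triple), 101 ± 12.4 (XBP1IEC-KO), 107 ± 13.5 (MLKL triple) and 111 ± 23.6 CPM (double knockout) (SD, n = 5). The first 2 groups did not differ beyond their spread, nor did neighbours among the last 4. The 4 groups labelled XBP1IEC-KO had the 4 highest means, but in the TNFR1 triple knockout the mice overlapped the controls. Against WT, Rps27l passed by edgeR in the double knockout only. The part of Xbp1 in this order was not tested.

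**Figure D3:**
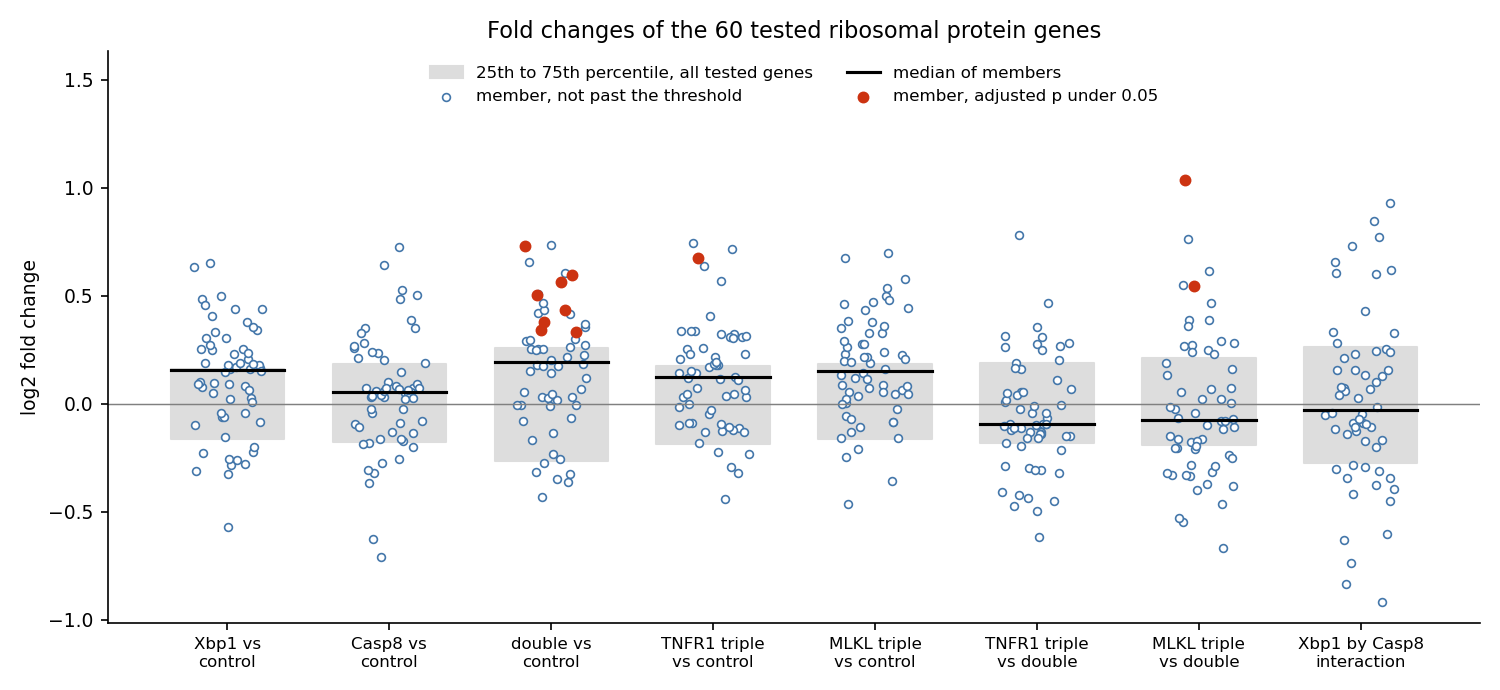
Log2 fold change of each of the 60 tested members (points) in the 8 comparisons, with the median of members (black line) and the 25th to 75th percentile of all 15458 genes (grey). Filled red points passed an adjusted p of 0.05: 8 in the double knockout against control, 1 and 2 in the comparisons of the TNFR1 and MLKL triple knockouts, and 0 elsewhere.

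Ratios of a paralogue to its parent were taken within a library after adding 0.5 CPM to each level. Apart from that addition they do not depend on scaling between libraries. For Rps27, whose levels were low, the addition makes the ratio smaller than that of the plain levels. The mean log2 ratio of Rps27l to Rps27 was 5.45 ± 0.84 in controls and 5.94 ± 0.81 in the double knockout (SD, n = 5), and that of Rpl7l1 to Rpl7 was 1.85 ± 0.46 and 2.26 ± 0.29. Of the 14 tests (2 pairs in 7 comparisons) none passed: the smallest p by an exact two-sided permutation test was 0.127, for Rps27l to Rps27 in XBP1IEC-KO against WT (a difference of 0.68), and the adjusted p was at least 0.694. The smallest p that 5 against 5 can give is 0.00794. The denominator Rps27 rested on 22 to 32 reads per group.

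Reads on the copies were read as a group of their own. Of the 620 pseudogene copies 42 passed the filter on low counts, and 5 were higher and 1 lower in the double knockout than in WT (adjusted p under 0.05 by edgeR), beside 11.1% and 10.2% of all genes. Rpl38-ps2 was at 32.0 to 43.2 CPM in controls, 84.0, 47.1, 52.2, 60.1 and 94.97 in the double knockout, and 28.8, 36.6, 54.9, 29.4 and 27.6 in the TNFR1 triple knockout. In the MLKL triple knockout it was at 40.4, 48.2, 101, 52.9 and 36 CPM. Rpl38-ps2 was higher in the double knockout than in WT (0.87 ± 0.23, adjusted p = 0.00681 by edgeR). It was lower in the TNFR1 triple than in the double knockout (-0.92 ± 0.23, adjusted p = 0.0289). There 2 of the 42 copies were lower and 0 higher, beside 1.33% and 1.02% of all genes. In the MLKL triple against the double knockout 1 copy was lower and 0 higher, beside 4.21% and 3.44%. Since Rpl38-ps2 overlaps Gm11077 and the strand setting is not known, the source of its reads was not tested. Rpl38 itself, at 0.861 ± 0.399 and 1.11 ± 0.487 CPM in control and double knockout (SD, n = 5), was not tested.

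In Casp8IEC-KO against WT 2 of the 42 copies tested were lower and 0 higher, beside 0.537% and 0.634% of all genes. Gm14303, the copy of Rps29, was at 344, 358, 407, 405 and 480 CPM in controls and 262, 207, 222, 262 and 256 in Casp8IEC-KO. Rps13-ps2 was at 356, 356, 391, 378 and 475 CPM and at 264, 220, 268, 286 and 264. Neither pair of groups overlapped, and 3.84% of all genes lay wholly below controls. The fold changes were -0.66 ± 0.12 (adjusted p = 0.00378) and -0.53 ± 0.11 (adjusted p = 0.0151) by edgeR.

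Rps29 itself was at 1.40 ± 0.619 and 1.90 ± 0.531 CPM in controls and Casp8IEC-KO, and Rps13 at 3.74 to 6.23 and 3.40 to 6.90 CPM, with overlap in both; Rps29 had too few reads to be tested and Rps13 did not pass. The interaction was also past the threshold for both copies, 0.74 ± 0.17 (adjusted p = 0.0295) for Gm14303 and 0.75 ± 0.16 (adjusted p = 0.0226) for Rps13-ps2. The mean levels of Rps13-ps2 were 391 in controls, 328 in XBP1IEC-KO, 260 in Casp8IEC-KO and 392 in the double knockout. Those of Gm14303 were 398.5, 274.1, 241.7 and 296 CPM in the same order. Gm14303 was also wholly below controls in XBP1IEC-KO (253.5 to 299.3 CPM) and in the TNFR1 triple knockout (234.3 to 329.3 CPM). Of all genes 4.68% and 3.38% lay wholly below controls there, and no copy was called lower in either comparison.

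**Figure D4:**
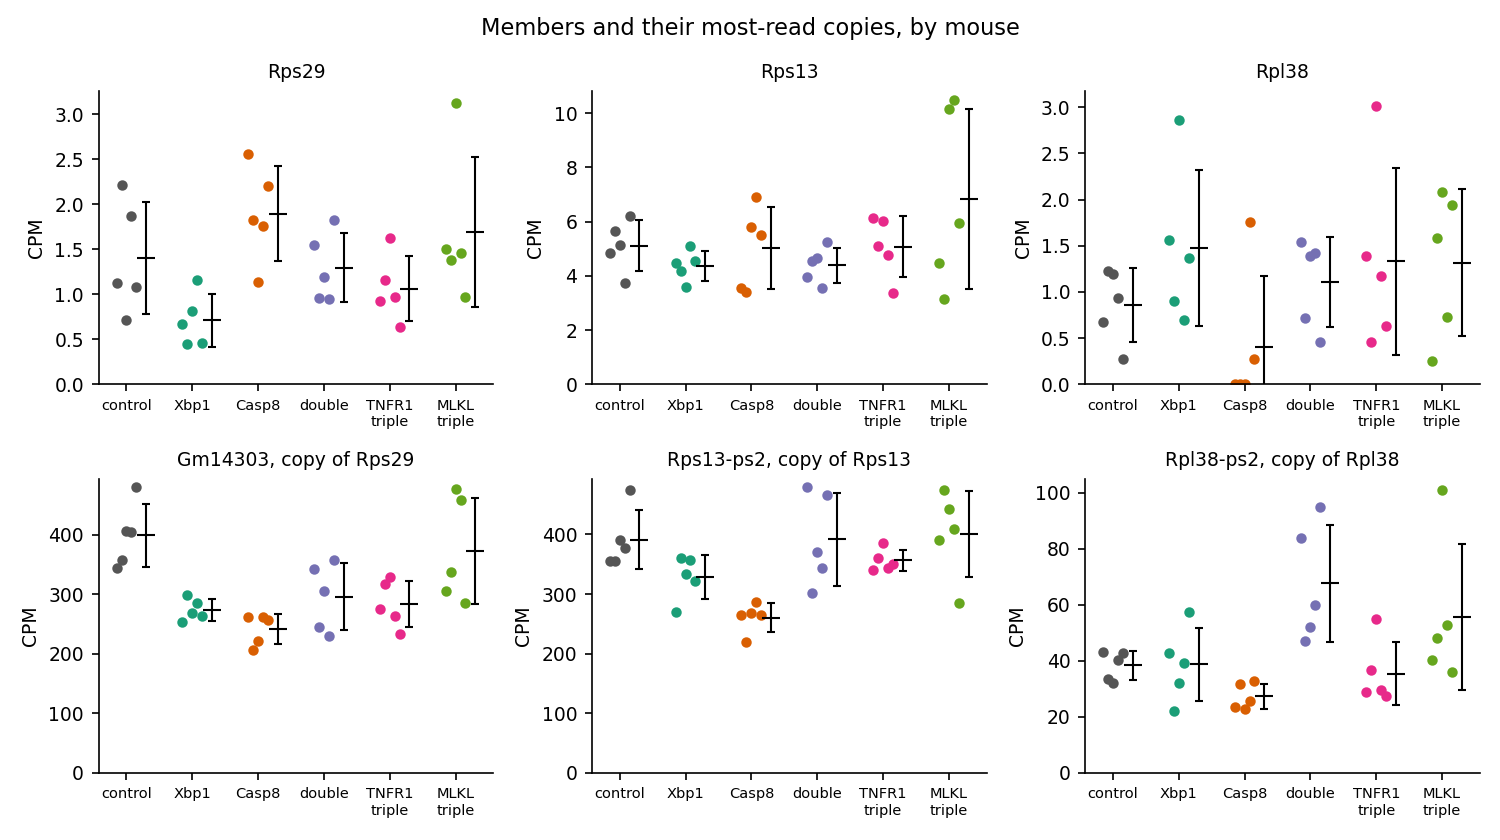
CPM of Rps29, Rps13 and Rpl38 (top) and of their most-read pseudogene copies (bottom) in each of the 30 mice by genotype (points), with mean and SD (black, n = 5; error bars are cut at 0). The copies are read at 22.2 to 480 CPM and their members at 0 to 10.5 CPM, and Gm14303 and Rps13-ps2 are lower in Casp8IEC-KO than in control. Gm14303 is also below every control in XBP1IEC-KO and in the TNFR1 triple knockout.

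When the reads of the pseudogene copies were added to each member and the whole table was fitted again, 67 of the 69 members were tested. In the double knockout against WT 12 were then higher (17.9%, beside 11.1% of all genes) and 2 lower (2.99%, beside 10.2%). Rps25, Rpl12, Rpl38 and Rps9 joined the higher group, and Rps29 (-0.38 ± 0.12) and Rpl27a (-0.30 ± 0.11) were lower. The 8 members called on their own reads were called again. In Casp8IEC-KO against WT 0 were higher (0.642% of all genes) and 2 lower (2.99%, beside 0.538%), Rps29 (-0.66 ± 0.12, adjusted p = 0.00393 by edgeR) and Rps13 (-0.52 ± 0.11, adjusted p = 0.0159). The summed reads of Rps29, Rps13 and Rpl38 lay almost wholly on Gm14303, Rps13-ps2 and Rpl38-ps2. In every comparison their calls after the addition therefore rest on the reads of these copies and are no separate result on the members.

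The same addition gave 2 higher calls in the interaction (2.99%, beside 0.720% of all genes), Rps13 (0.74 ± 0.16) and Rps29 (0.74 ± 0.17), and 0 lower (0.668%). In the TNFR1 triple against the double knockout 1 member was lower (1.49%, beside 1.31%), Rpl38 (-0.89 ± 0.23), and 0 higher (1.02%). In the TNFR1 triple against WT only Rpl6 was higher (1.16% of all genes) and 0 lower (0.960%). In XBP1IEC-KO against WT 0 were called (0.0584% of all genes higher and 0.0259% lower), nor were any in the MLKL triple against WT (0.344% and 0.512%). In the MLKL triple against the double knockout Rpl27a was the 1 member higher (0.47 ± 0.11, adjusted p = 0.00636; 1.49%, beside 3.42% of all genes) and 0 were lower (4.22%), while Rps10 was at 0.41 (adjusted p = 0.148). Rps27l kept its value of 0.56 ± 0.12 in the double knockout, its 3 copies having almost no reads.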

How the data were processed

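RNA of 30 colons was read by 3′ tags (Lexogen QuantSeq, 2 µg of RNA with RIN above 7), per the labels' protocols. The authors deposited estimated counts per gene; cutadapt 3.2, Subread, featureCounts 2.01, R 4.0.0 and GRCm38/mm10 are named in the submitters' processing notes. The sources used here do not state the strand setting, annotation release or division of shared reads; 15.4% of the members' nonzero values were not whole, against 11.2% over all genes. Antisense or overlapping genes therefore cannot be told apart.

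Counts were rounded and tested with edgeR 4.0.16 in R 4.3.3 (TMM, low-count filter, quasi-likelihood F test, all 30 libraries in 1 fit, 8 comparisons, Benjamini-Hochberg over 15458 genes); CPM uses library totals. Replicates are separate mice. Copies were found with blastn 2.17.0 in GENCODE M21 transcripts. Alternatives included DESeq2 1.42.0, other scalings and filters, sex, a replicate block and leaving out each mouse. Named with tests are up to 5 called members of smallest p per direction, or the 2 of smallest p where none was called, up to 3 genes per other list, the 4 highest and lowest members, and paralogues; Rps26, Rps20, Rplp1, Rpl9, Rps15, Rps15a, Rpl23 and the copies were named after their values were seen. Members and gene lists were chosen with earlier results of these data known. Some members that the naming rule covers are not reported here by name.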

Additional observations from a re-analysis of the deposited data

Results flagged for a closer look

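In 186 groups of 5 mice (31 genes in 6 groups), 12 had 1 mouse whose gap to the nearest of the others was over 0.71 of the whole range, and chance gives about 1 in 20 groups. In Casp8IEC-KO, Rpl23a was 4.39 CPM in replicate 4 (2.22 to 2.84 in the others), Rpl38 was 1.76 CPM in the same mouse (0 to 0.275), and Rpl35a was 2.28 CPM in replicate 3 (0.753 to 1.10). In the double knockout, Rpl39 was 112 CPM in replicate 1 (48.8 to 63.1 in the others) and Rpl41 was 36.9 CPM in replicate 5 (19.4 to 23.8). In XBP1IEC-KO, Rpl7 was low in replicate 1 at 6.26 CPM (9.77 to 10.9), Gm10288 in replicate 4 at 240 CPM (268 to 279), and replicate 5 was low for both Rplp0 at 13.4 CPM (16.7 to 17) and Rplp1 at 1213 CPM (1441 to 1496). Among controls, Rplp1 was 963 CPM in replicate 2 (1194 to 1233), and Gm9794 was 425 CPM in replicate 5 (351 to 368). In the TNFR1 triple knockout, Rplp1 was 1644 CPM in replicate 5 (1240 to 1334).

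For the copies Gm14303 and Rps13-ps2 the effect of losing Casp8 differed with and without Xbp1, by an interaction of 0.74 and 0.75 on the log2 scale (adjusted p = 0.0295 and 0.0226 by edgeR). Both copies are identical to Rps29 and Rps13 over the stretches printed above, which were chosen for the fewest differences. Which gene the reads came from was not tested.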

How the results depend on the processing

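Of the 21 members and comparisons named with a test, none reversed under any alternative. Scaling to column totals gave medians of 0.073 (XBP1IEC-KO against WT), 0.049 (TNFR1 triple against WT) and 0.056 (interaction), 2 lower calls in the double knockout against WT, and 0 higher in the TNFR1 triple against WT. It also turned the balance of calls over all genes, to 7 higher and 20 lower (XBP1IEC-KO; 9 and 4 with TMM), 76 and 128 (Casp8IEC-KO; 98 and 83) and 137 and 267 (TNFR1 triple; 179 and 148) against WT, 681 and 467 in the MLKL triple against the double knockout (531 and 651) and 138 and 46 in the interaction (110 and 103). Normalizing without the members gave 1 lower call in the double knockout against WT. DESeq2 gave 2 higher in XBP1IEC-KO, 2 higher in the TNFR1 triple and 1 higher in the MLKL triple knockout against WT, 1 lower in each triple against the double knockout, and 1 higher in the interaction. Fitting only the groups compared gave 2 higher (XBP1IEC-KO), 1 (Casp8IEC-KO), 0 (TNFR1 triple), 1 (MLKL triple), all against WT, 1 higher in the MLKL triple against the double knockout and 1 in the interaction. Without a filter on low counts 1 member was lower in each triple against the double knockout. With sex as a term, 1 was lower in the double knockout, 0 were higher in the TNFR1 triple against WT and 0 in the MLKL triple against the double knockout.

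The replicate numbers did not pair the samples: same-numbered mice correlated at a median of 0.00102 (75 pairs) and others at -0.00902 (300 pairs). The replicate block left 0 members higher in the TNFR1 triple against WT and moved no other count by over 1.5 times.

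Chosen after seeing the data, adding the copies gave medians of 0.045 (TNFR1 triple against WT) and 0.096 (interaction), 2 lower in Casp8IEC-KO, 12 higher and 2 lower in the double knockout, 1 lower in the TNFR1 and 1 higher in the MLKL triple against the double knockout, and 2 higher in the interaction. Leaving out the 3 libraries gave 2 higher in the TNFR1 triple and 1 in the MLKL triple against WT, and a median of 0.081 in the MLKL triple against the double knockout. The causes were not tested.

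Leaving out 1 mouse at a time gave 4 to 11 higher (4 without WT replicate 2) and 0 to 1 lower in the double knockout, 0 to 2 higher in the TNFR1 and 0 to 1 in the MLKL triple against WT, and 0 to 1 lower in the TNFR1 triple against the double knockout. The MLKL triple against the double knockout had 1 to 2 higher, 0 to 3 lower (3 without MLKL replicate 2) and a median of -0.132 to 0.014 (the highest without the first double-knockout mouse), and the interaction 0 to 1 higher. Ratios of paralogues changed sign in 4 comparisons: Rpl7l1 to Rpl7 in the TNFR1 triple against the double knockout (-0.061 to 0.169), and Rps27l to Rps27 in Casp8IEC-KO against WT (-0.11 to 0.44) and in the TNFR1 (-0.44 to 0.12) and MLKL triple (-0.32 to 0.23) against the double knockout. Depth limits the 9 untested members, where 1 read is about 0.232 CPM.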
